A study of Rattus norvegicus with 4 samples.

Results

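miR-1224 gave the brightest miRNA signal in extracellular vesicles of both macrophage groups on these arrays, and is 1 of the 758 rat miRNAs that the array carries. It was chosen by its level and rank on these same arrays, so both are given as a description and not as a finding. Its members on the array were taken as every non-control spot annotated to rno-miR-1224, which gave 2 probes of 1806 and 16 spots of 12128 on each array. The prefix rno- is left out of miRNA names from here on.

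The M1_OA group (n = 2 arrays) holds RNA of vesicles from cultured macrophages grown from bone marrow of rats with knee osteoarthritis (OA), and the M0_sham group (n = 2 arrays) that of rats after a sham operation. All animals were male wild-type Sprague-Dawley rats operated on at 8 weeks of age, and marrow was taken 8 weeks later. OA surgery joined destabilisation of the medial meniscus (DMM) with transection of the anterior cruciate ligament (ACLT). Marrow cells carrying CD45 and CD11b were sorted and grown in both groups with 20 ng/mL of the growth factor M-CSF to day 7 (M0, resting). M1_OA cells were then made inflammatory (M1) over 48 hours with interferon-γ at 20 ng/mL and bacterial lipopolysaccharide (LPS) at 100 ng/mL, followed by 60 minutes of ATP at 5 mM. Surgery, LPS with interferon-γ, and ATP change together, and so may time in culture, for which nothing past day 7 is given for M0_sham. Their parts cannot be told apart. Nothing in the labels ties the replicates of a group to different rats or dishes, and the spread behind each p-value is therefore that of the arrays, possibly a technical one. The 4 arrays carry 1 slide barcode and were scanned on 2 dates, each with arrays of 1 group. Scan date and group therefore cannot be told apart. The number of arrays limits the precision.

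miR-1224 belongs to the mirtrons, miRNAs whose hairpin is a short intron that the splicing machinery cuts out, so that they do not need the nuclear enzyme Drosha. In mammals it lies in the gene Vwa5b2. In mouse macrophages it has been described as a brake on LPS-induced TNF, through the transcription factor Sp1. Mature miRNAs pair with their targets mainly through the seed, bases 2 to 8 from the 5′ end.

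The sequences are printed first because the probes, which differ by 1 base in length, gave different values. They come from RefSeq (build GRCr8) for the RNA and from the scanner files for the probes. The hairpin Mir1224 lies on the minus strand at chr11:93811291-93811375 and the mature miRNA at chr11:93811355-93811375, inside the bounds of Vwa5b2 (chr11:93810456-93827609, minus strand), the other gene of the annotation that spans it. The table used gives gene bounds only, with no exons or introns. The hairpin of 85 bases starts with the mature miRNA and with gu and ends with ag, the bases that open and close most introns. In the first line capitals mark the mature miRNA and in the second its seed.
Mir1224 hairpin: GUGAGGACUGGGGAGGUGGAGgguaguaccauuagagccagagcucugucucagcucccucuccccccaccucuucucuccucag
miR-1224: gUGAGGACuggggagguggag

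Both probes pair with the 3′ part of the miRNA and neither covers the seed. In the next lines, capitals in the miRNA mark the bases that pair with each probe, and the capital in the longer probe marks the base that the shorter one lacks. The probe of 11 bases pairs with bases 11 to 21 and holds 8 C, 2 T, 1 A and 0 G. The probe of 10 bases pairs with bases 12 to 21.
Bases paired with the longer probe: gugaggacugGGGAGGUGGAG
Longer probe: ctccacctccC
Bases paired with the shorter probe: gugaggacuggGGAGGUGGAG
Shorter probe: ctccacctcc

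These are among the shortest probes of the array, whose probes run from 10 to 23 bases with a median of 16. At the short end, 53 of the 1806 probes (2.93%) have at most 11 bases. They belong to 36 miRNAs, of which 5 had such a probe well above background on at least 1 array and 1, miR-1224, on all 4. "Well above background" here is the scanner software's flag on a share above 0.5 of a probe's spots.

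On the M1_OA arrays miR-1224 had signals of 18072 and 17359 (replicates 1 and 2), against 2698 and 5329.6 on the M0_sham arrays. These are background-subtracted intensities in arbitrary units, with the spots of a probe averaged and the probes summed, before any scaling between arrays. The means were 17716 ± 505 in M1_OA and 4014 ± 1861 in M0_sham (SD, n = 2 each). The groups did not overlap, both M1_OA arrays being brighter. The M1_OA arrays differed from each other by 1.04-fold and the M0_sham arrays by 1.98-fold. The labels give 0.2 µg of RNA per array in both groups, so these signals are per amount of RNA and not per vesicle. Neither the number of vesicles nor the miR-1224 in each was measured.

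The spots themselves agreed closely. With the longer probe the 8 spots ran from 15064 to 16977 (median 16046) and from 14219 to 16266 (median 15551) on M1_OA replicates 1 and 2, and from 2471 to 2746 (median 2497) and from 4707 to 5418 (median 4918) on M0_sham replicates 1 and 2. With the shorter probe they ran from 2019 to 2127 (median 2069.6) and from 1913 to 2017 (median 1969) in M1_OA, and from 172 to 191 (median 181) and from 330.5 to 350.1 (median 337) in M0_sham. The spread over the spots of 1 probe on 1 array was at most a CV of 4.85% for the longer probe and 3.41% for the shorter. All 64 spots were well above background, 0 were saturated, and the software marked 2 as outliers, 1 on each M0_sham array, which the ranges and medians above include and the means and CVs leave out. Spots of 1 array share its RNA and are no replicates, so this spread says nothing of the groups.

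**Figure D1:**
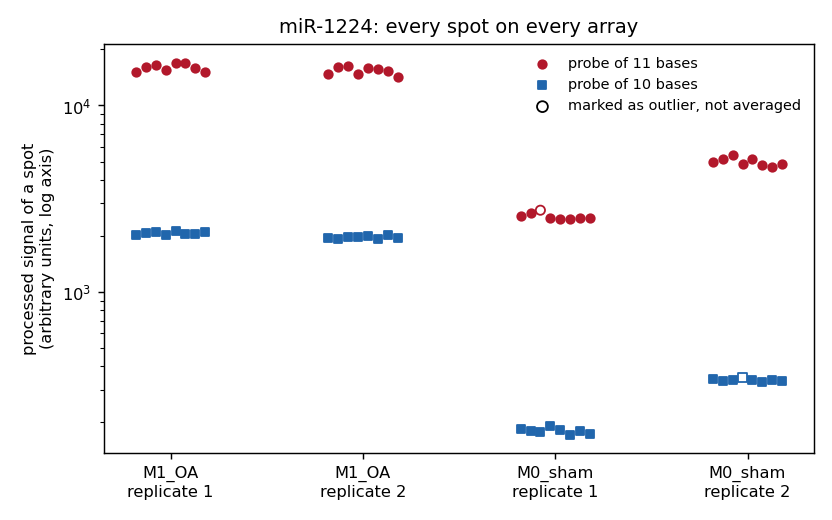
Processed signal (arbitrary units, log axis) of each of the 16 miR-1224 spots on each array, with circles for the probe of 11 bases and squares for that of 10. The 8 spots of a probe lie close together, the M1_OA arrays lie above the M0_sham arrays for both probes, and the gap between the probes is narrower on the M1_OA arrays.

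miR-1224 ranked first on every array. It made up 75.8% and 77.6% of the summed signal of the 42 and 45 miRNAs well above background on M1_OA replicates 1 and 2, against 74.5% and 82.1% of that of the 23 and 13 on M0_sham replicates 1 and 2. The means were 76.7 ± 1.26% and 78.3 ± 5.35% (SD, n = 2 each), and the groups overlapped, with both M1_OA arrays between the M0_sham arrays. Next in rank came miR-1896 in M1_OA (5.42% and 5.15%), and miR-466b-5p (4.75%) and miR-3473 (5.17%) on M0_sham replicates 1 and 2, so that miR-1224 was 14.0, 15.1, 15.7 and 15.9 times as bright as the next miRNA on these 4 arrays. The others of the 5 next brightest were miR-3473 (4.01% and 2.60%), miR-23a-3p (1.79% and 1.37%), miR-21-5p (1.62% and 1.43%) and miR-6216 (signals of 359 and 314) in M1_OA. On the M0_sham arrays they were miR-3584-5p (4.31% and 3.50%), miR-32-3p (1.48% and 1.22%) and miR-1896 (1.31% and 1.48%), with miR-3473 (4.02%) on replicate 1 and miR-466b-5p (2.72%) on replicate 2. Levels of different probes are not comparable as amounts of RNA, so a share of signal is not a share of molecules.

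The summed signal of the detected miRNAs without miR-1224 was likewise higher in M1_OA. It was 5761 and 5008 on the M1_OA arrays, against 921 and 1160.3 on the M0_sham arrays. These sums run over unlike sets, since 42 and 45 miRNAs were detected on the M1_OA arrays and 23 and 13 on the M0_sham arrays. Single miRNAs did not all go this way. For example, miR-466b-5p was dimmer on both M1_OA arrays (96.9 and 162) than on both M0_sham arrays (172 and 176). The signal of miR-1224 was 3.14 and 3.47 times the sum of all other detected miRNAs in M1_OA, against 2.93 and 4.59 times in M0_sham. Again the M1_OA arrays lay between the M0_sham arrays.

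**Figure D2:**
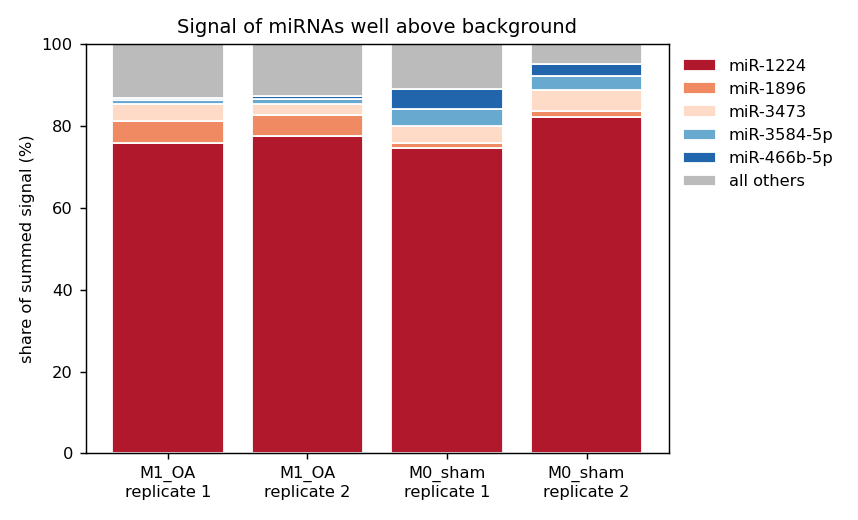
Share (%) of the summed processed signal of miRNAs well above background on each array, with miR-1224 at the bottom of each bar. The miR-1224 segment runs from 74.5% to 82.1% over the 4 arrays, and the M1_OA bars lie between the M0_sham bars.

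The probes of miR-1224 did not change in step. The longer probe was 7.74 and 7.85 times as bright as the shorter one on the M1_OA arrays, against 14.0 and 14.9 times on the M0_sham arrays, with means of 7.79 ± 0.078 and 14.4 ± 0.64 (SD, n = 2 each). This ratio is taken within an array, so scaling between arrays does not touch it. The groups did not overlap. The ratio was chosen after its values were seen and was not tested. Of the 6 miRNAs with a longer and a shorter probe both well above background on all arrays, 3 (50%) had lower ratios on both M1_OA arrays than on both M0_sham arrays, and 0 of the 5 others had higher ones. Besides miR-1224 these were miR-466b-5p (1.60 and 1.64 in M1_OA, 3.26 and 2.40 in M0_sham) and miR-1896 (1.07 and 1.06 in M1_OA, 1.25 and 1.14 in M0_sham). The ratios of miR-1224 lay above those of all 5 others, which ran from 0.891 to 3.26. A ratio within an array shows unequal change of the 2 probes and does not say which of them follows the miRNA.

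With probes tested one by one (62 probes, scaled as described below), the shorter probe passed as higher in M1_OA, by a log2 difference of 1.39 ± 0.29 (SE; limma, Benjamini-Hochberg (BH) adjusted p = 0.0207). The longer one did not pass, at 0.51 ± 0.32 (limma, BH-adjusted p = 0.242). Of all probes tested 62.9% passed, 54.8% as higher and 8.06% as lower, where 44 of the 62 entered through detection on both M1_OA arrays alone and 1 through both M0_sham arrays alone. With 1 array of a group left out, the spread comes from the other group's pair and the lone array is assumed to vary like it. The shorter probe then did not pass without M1_OA replicate 1 or 2 (1.63 and 1.16; limma, BH-adjusted p = 0.139 and 0.195), and the longer one did without M0_sham replicate 2 (1.05; limma, BH-adjusted p = 0.0239). Without scaling both probes passed as higher, at 3.03 ± 0.35 for the shorter and 2.15 ± 0.38 for the longer (SE; limma, BH-adjusted p = 0.00268 and 0.00906), where 79% of probes did.

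**Figure D3:**
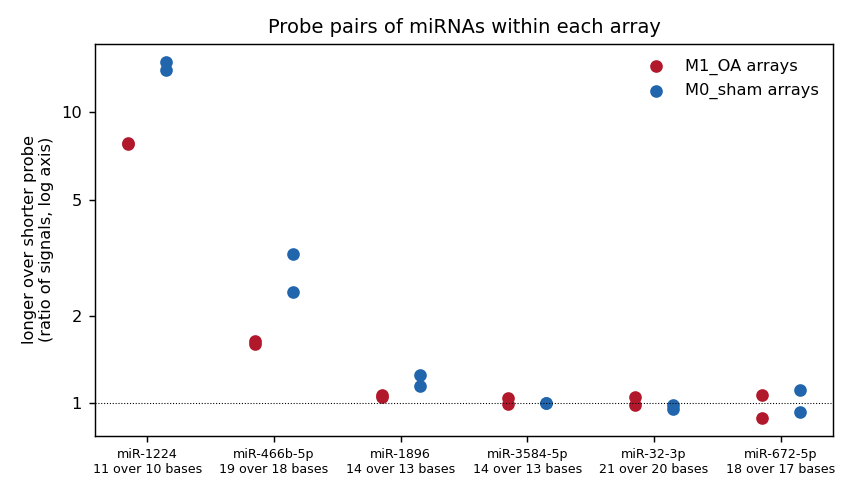
Ratio of the longer to the shorter probe (log axis) for the 6 miRNAs with both well above background on all arrays, 1 point per array. miR-1224 has the highest ratios, at 7.74 and 7.85 on the M1_OA arrays and 14.0 and 14.9 on the M0_sham arrays, while the ratios of miR-672-5p, miR-32-3p and miR-3584-5p overlap between the groups.

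Whether miR-1224 differed between the groups depended on the scaling. Arrays were scaled to the 75th percentile of the 11 miRNAs that all 4 arrays detected, after which miR-1224 had log2 values of 13.05 and 13.54 in M1_OA and 12.43 and 12.99 in M0_sham. The difference was 0.59 ± 0.31 (SE, n = 2 each; limma, BH-adjusted p = 0.216) and did not pass, while 63.4% of the 41 miRNAs in the fit did, 53.7% in the higher direction and 9.76% in the lower. Of the 41, 29 entered the fit through detection on both M1_OA arrays alone, 1 through both M0_sham arrays alone and 11 through all arrays, so the filter favours higher calls and nothing is read from these shares. Among the 11 miRNAs whose entry into the fit did not depend on the group, the median log2 difference was -0.95. Of these, 2 had a higher one than miR-1224, namely miR-1896 and miR-6216. For miR-1224 the groups did not overlap, although the lower M1_OA array (13.05) was close to the higher M0_sham array (12.99). Among the 11 the groups overlapped only for miR-3473 and miR-466d, so a lack of overlap is not particular to miR-1224. In limma each SE is drawn towards those of the other miRNAs in a fit. Many of these lay, on both M0_sham arrays, at the floor set for low signals. Fitted over the 11 miRNAs alone, the same 0.59 had an SE of 0.56 (limma, BH-adjusted p = 0.337). The SEs and passes of miR-1224 here and below therefore do not measure its own spread alone. With the normexp background correction in place of the software's, 4 of the 41 passed as higher and 25 as lower. There miR-1224 passed at 0.99 ± 0.25 (SE; limma, BH-adjusted p = 0.00102). In the normexp fit of probes both miR-1224 probes had the same SE, 0.255. That SE was pooled over the probes and is not the spread of either one, so this pass is no measure of the spread of miR-1224.

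The 75th percentile of 11 values lies midway between the values ranked 8 and 9 from the lowest, so the signal of miR-1224 itself does not enter it, but its place in the set does. On M1_OA replicate 1 that put it between miR-6216 (359) and miR-3473 (956), at 657, while on M0_sham replicate 1 it lay between miR-3473 (145) and miR-3584-5p (156), at 151. With miR-1224 left out of the set, the percentile became 336 and 301 on the M1_OA arrays and 122 and 156 on the M0_sham arrays, in place of 657 and 448 and of 151 and 202. The log2 difference of miR-1224 was then 1.02 ± 0.27 (SE; limma, BH-adjusted p = 0.0338) and passed as higher, with an SE that again draws on the other miRNAs of the fit. With the main scaling and without M0_sham replicate 2 it was 1.12 ± 0.053 (SE; limma, BH-adjusted p = 0.0237), but there the spread comes from the M1_OA arrays alone and the lone M0_sham array is assumed to vary like them. Scaling to the median of the 11 gave 1.19 ± 0.56 (SE; limma, BH-adjusted p = 0.0649).

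Without scaling the log2 difference was 2.22 ± 0.38 (SE; limma, BH-adjusted p = 0.00469), where 78% of the tested miRNAs passed as higher and 0 as lower, under the same filter. The median of the 11 miRNAs detected on all arrays was 0.69. The 4 spike-ins, synthetic RNAs marked as such in the files, differed little by comparison: their log2 differences ran from -0.63 to 0.35, and 3 of 4 were lower in M1_OA. Scaled to them, miR-1224 differed by 2.51 ± 0.36 (SE; limma, BH-adjusted p = 0.00311), with 80.5% of miRNAs passing as higher and a median of 0.97 over the 11. Under each of these settings 2 of the 11 had a higher difference than miR-1224.

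Scaled to the summed signal of the detected miRNAs, most of which is miR-1224, it differed by -0.029 ± 0.21 (SE; limma, BH-adjusted p = 0.922), a value near 0 by construction. With miR-1224 left out of the sum, where it is not, the difference was -0.15 ± 0.28 (SE; limma, BH-adjusted p = 0.614). In these fits 16 and 15 of the 41 miRNAs passed as higher and 8 in each as lower, against 22 and 4 with the 75th percentile. Both differences of miR-1224 lay below 0 by less than their SE, and neither passed, so no change of direction is read from them.

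**Figure D4:**
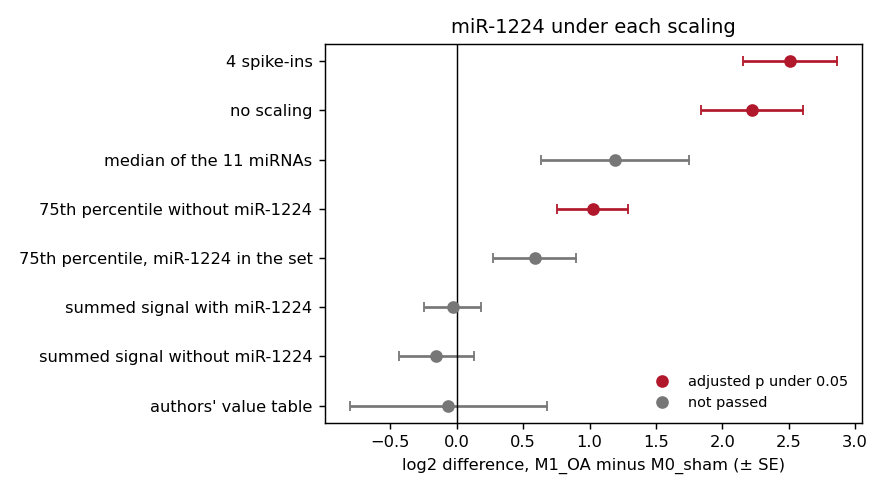
Log2 difference of miR-1224 between M1_OA and M0_sham (bars: SE of the limma fit, n = 2 arrays each) under each scaling, with red points for an adjusted p under 0.05. The values run from 2.51 with spike-ins to -0.15 with the summed signal of the other miRNAs.

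In the authors' deposited table of log2 values, miR-1224 ranked first on every array, at 11.41 on both M1_OA arrays and at 10.59 and 12.36 on M0_sham replicates 1 and 2. The M1_OA arrays lay between the M0_sham arrays, and the difference was -0.062 ± 0.74 (SE; limma, BH-adjusted p = 0.962). The equal values of the M1_OA arrays are a feature of the table. Of the 67, 68, 67 and 67 values above its floor on M1_OA replicates 1 and 2 and M0_sham replicates 1 and 2, 65, 68, 66 and 66 also occur, within 1e-06, in another column, and the 4 columns together hold 74 different values above the floor. From rank 7 to rank 20 the sorted values are equal on all 4 arrays, and the 6 ranks above are not. The normalization behind it is not given in the sources used here.

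**Figure D5:**
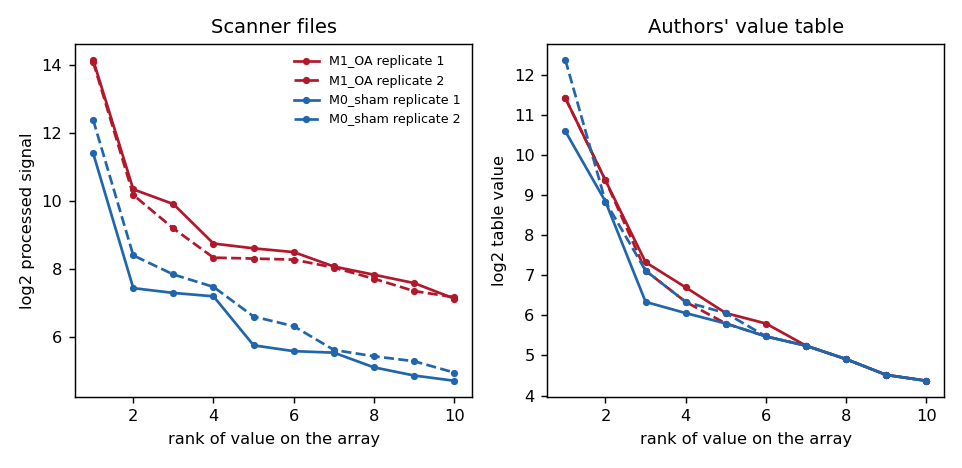
Sorted values at ranks 1 to 10 of each array, as log2 processed signal of miRNAs well above background (left) and in the authors' value table, controls included (right). Rank 1 is miR-1224 in each line. The scanner signals of M1_OA lie above those of M0_sham, while the table's lines coincide from rank 7 on.

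Among the 11 miRNAs that all arrays detected, the 3 at the smallest Euclidean distance from miR-1224 over the 4 arrays were taken. The distance is between log2 scaled values centred on each miRNA's mean. They were miR-3473 (distance 0.68), miR-6216 (1.04) and miR-466d (1.42). With 4 arrays this is a description, and being nearest does not show that a miRNA follows miR-1224. Between the groups miR-466d went the other way, at -0.62 against 0.59. miR-3473 had signals of 956 and 581 in M1_OA and 145 and 335 in M0_sham, and did not pass after scaling (log2 difference 0.12 ± 0.33 SE; limma, BH-adjusted p = 0.763). miR-6216 had 359 and 314 in M1_OA and 46.1 and 42.8 in M0_sham, and passed as higher (1.28 ± 0.27 SE; limma, BH-adjusted p = 0.0272). miR-466d had 27.9 and 53.3 in M1_OA and 12.0 and 30.4 in M0_sham, where the groups overlapped, and did not pass (-0.62 ± 0.69 SE; limma, BH-adjusted p = 0.485). The mature sequences are shown with the seed in capitals to compare base content, together with miR-1896, the next brightest in M1_OA.
miR-1224: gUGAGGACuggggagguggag
miR-3473: uCUAGGGCuggagagauggcua
miR-6216: gAUACACAgaggcaggaggagaa
miR-466d: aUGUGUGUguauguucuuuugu
miR-1896: uGGUGGGUgaggaggagg

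None of them shares the seed of miR-1224. Of the 685 array miRNAs that matched the RefSeq table by name, 0 others share its bases 2 to 8, and 0 others its bases 2 to 7. By its content of G, 13 of 21 bases (61.9%), miR-1224 had rank 3 of the 685. The 2 ahead of it were miR-1896, and miR-149-3p, which was well above background on no array. The median share of G was 40.9% in the 11 miRNAs detected on all arrays, 27.9% in the 40 detected on 1 to 3 and 22.7% in the 634 detected on none. The motif GGAG, searched on the strand of the miRNA only, occurs in miR-1224 and in 5 of those 11 miRNAs in all (45.5%), against 5 of 40 (12.5%) and 44 of 634 (6.94%). miR-149-3p, with the higher G content, had signals of -1.01 and -3.38 on the M1_OA arrays and -7.65 and -8.02 on the M0_sham arrays.

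The stretch that the longer probe pairs with occurs in 1 of 693 mature rat miRNAs of the RefSeq table, miR-1224 itself. The same holds for the stretch of the shorter probe. Other probes of the array share at most 7 bases in a row with the longer probe, in 1 miRNA, miR-188-5p, whose probes of 11 and 10 bases had signals of 52.2 and 48.9 on M1_OA replicate 1 and 45.4 and 38.6 on replicate 2, against 4.38 and 3.74 on M0_sham replicate 1 and 5.90 and 4.57 on replicate 2. A run of at least 6 bases occurs in 18 probes of 11 other miRNAs, of which 2 were well above background on at least 1 array and 0 on all 4. Over the whole array, 703 of 758 miRNAs were so on no array and 11 on all 4. RNAs other than miRNAs were not searched here, and binding of these to the probes was not tested.

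The other miRNAs listed as mirtrons on this array were not detected, which also holds for 703 of all 758 miRNAs. Nothing about mirtrons or cell types is read from the counts that follow. Of the 5 arms listed, miR-1224 was tested, and the other 4, miR-877, miR-702-5p, miR-702-3p and miR-3102, were well above background on no array, with signals between -20.9 and 12.8. Of the 14 miRNAs listed as markers of cell types, 2 were well above background on at least 1 array: miR-223-3p of granulocytes and monocytes (59.7 and 43.7 in M1_OA, 23.1 and 16.6 in M0_sham), on 3 arrays, and miR-206-3p of muscle, on 1. The blood cell marker miR-142-3p was on none, nor was the neuronal marker miR-124-3p. Spots of miRNAs detected on no array within 2 rows and 1 column of a spot of the longer probe (85 of them) had median signals of -2.55 and -3.48 on the M1_OA arrays and -1.96 and -2.98 on the M0_sham arrays, against -2.39, -3.17, -1.98 and -3.65 for the 11163 other such spots on these arrays. The medians near bright spots were lower than the others on both M1_OA arrays and higher on both M0_sham arrays. Each gap was smaller than the SD of the other spots, 7.80 and 4.63 on the M1_OA arrays and 2.57 and 2.86 on the M0_sham arrays. Nothing is therefore read from the direction of the gaps, and spill-over between spots was not tested.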

How the data were processed

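The intensity values come from the authors' deposited scanner files, and Agilent Feature Extraction 10.7.1.1, named in the submitters' processing notes, made them. Per the file headers, it subtracted a background with spatial detrending and applied no scaling between arrays. Flags of 0 or 1 mark spots well above background or outlying. The authors' deposited table holds log2 values with a floor at -3.32. 8 of its 766 entries are not miRNAs and were left out of tests.

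Unmarked spots of a probe were averaged and the probes of a miRNA summed. Scaled signals were raised to a floor of 7.90, the lowest among detected miRNAs, before log2. A miRNA entered the fit where both arrays of a group detected it. The 41 such miRNAs, and 62 such probes, were fitted with limma 3.58.1 in R 4.3.3 (lmFit, eBayes, two-sided, BH over all tested, threshold 0.05). The fit was tested on simulated data. With 2 arrays in each group the smallest exact permutation p is 0.333. The normexp alternative used an offset of 50 on the raw mean and local background intensities of the deposited files. The member, lists, tests and named miRNAs were chosen with earlier results of these data known. The named miRNAs were miR-1224, the 5 next brightest per array, the 3 nearest by distance, the miRNAs around the percentile, and detected list members. Plots used Python 3.11.15 and matplotlib 3.10.9.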

Additional observations from a re-analysis of the deposited data

Results flagged for a closer look

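The control spots named hur_2, which no comparison used, had signals of 28683 and 33355 on the M1_OA arrays, above those of miR-1224 there, and of 1948 and 1327 on the M0_sham arrays, below those of miR-1224. They were 19.2-fold brighter in M1_OA, a difference that was not tested. Of the 5 controls of that name series, 4 were well above background on all arrays, and all 4 were brighter on both M1_OA arrays than on both M0_sham arrays, by log2 differences of 2.17 (hur_1), 4.27 (hur_2), 0.93 (hur_4) and 3.02 (hur_6). What RNA they detect is not given in the sources used here.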

How the results depend on the processing

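Over 21 alternatives the log2 difference of miR-1224 ran from -0.15 to 2.51 and passed in 5, always as higher. These were no scaling (2.22), spike-ins (2.51), the 75th percentile without miR-1224 (1.02), normexp (0.99) and, with the spread of the M1_OA pair alone, the fit without M0_sham replicate 2 (1.12). The passes share the limits on the SE given above. In 3 alternatives the difference lay below 0 by less than its SE, without passing. These were the summed signal with miR-1224 (-0.029, near 0 by construction), that without it (-0.15) and the authors' table (-0.062). The difference was 0 with quantile normalization, where the brightest miRNA is equal on all arrays by construction. Leaving out each array in turn gave 0.34 to 1.12. The number of miRNAs called, 26, was 12 with quantile normalization, 17 with the software's total gene signal, 3 over the 11 miRNAs detected on all arrays and 14 with no filter, where most of the variances were 0 and the prior is unreliable. With each array left out it was 20 to 24. The split, 22 higher and 4 lower, was 4 and 25 with normexp, 1 and 2 over the 11 miRNAs, 32 and 0 without scaling, 33 and 0 with spike-ins, 16 and 8 and 15 and 8 with the summed signal with and without miR-1224, 21 and 0 without M1_OA replicate 1, 20 and 4 without M1_OA replicate 2, 17 and 3 without M0_sham replicate 1 and 13 and 9 without M0_sham replicate 2. For the longer probe the difference passed without scaling (2.15) and, with an SE pooled over probes, with normexp (0.93). It was below 0 with the summed signal without miR-1224 (-0.23), and was 0.26 to 1.05 with each array left out. The shorter probe missed the threshold with the summed signal without miR-1224 (0.66; limma, BH-adjusted p = 0.0742), and was 1.16 to 1.89 with each array left out. With the replicate block, miR-1224 stayed at 0.59 (limma, BH-adjusted p = 0.122) and the call of neither probe changed. 2 pairs of same-numbered arrays, with deviations correlated at r = 0.308 over 41 miRNAs, do not show that the numbers pair samples. The 75th percentile over all 758 miRNAs was below 0 on every array, so that scaling was not run.

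The share of miR-1224 on M1_OA replicates 1 and 2 and M0_sham replicates 1 and 2 was 73.5%, 76.0%, 67.6% and 77.0% of all miRNAs above 0, 74.1%, 76.5%, 68.9% and 77.5% with probes averaged, 68.3%, 69.0%, 59.2% and 75.3% with local background subtracted, 62.1%, 62.3%, 45.5% and 68.6% of raw intensity, 82.6%, 83.3%, 78.9% and 90.5% in the authors' table, and 71.6%, 71.6%, 61.8% and 74.3% of total gene signal. Both M1_OA arrays lay between the M0_sham arrays under all of these. The ratio of probes, under alternatives added after seeing the data, was 7.54 to 7.90 in M1_OA and 10.8 to 14.9 in M0_sham. Signals under 16.9 and 14.6 in M1_OA and 7.78 and 26.7 in M0_sham, the lowest of detected miRNAs, are not resolved.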
